A study of Caenorhabditis elegans with 16 samples.

Results

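The transcriptome of *ubql-1(tm1574)* mutant animals was compared with that of wildtype animals in whole *C. elegans* hermaphrodites. Libraries were selected by their genotype labels alone, 4 of *ubql-1(tm1574)* and 4 of wildtype, so that 8 of the 16 RNA-seq libraries of the study were described. Wildtype was the N2 Bristol strain. The mutant was the single outcrossed strain JPL52, which carries the *tm1574* deletion and no transgene. Both were grown at 20 °C on NGM plates with OP50 bacteria, received no other treatment, and were frozen as young adults on day 1 of adulthood. The other 8 libraries, used only to examine the same mutation in a second background, were 4 labelled *hsf-1* OE and 4 labelled *hsf-1* OE; *ubql-1(tm1574)*. Both of those strains carry an integrated transgene with *hsf-1* under the *sur-5* promoter, and the latter was made by crossing the former with JPL52. Any other variant of JPL52 may thus be in both mutant groups and cannot be told apart from the *tm1574* deletion here. The study calls its replicates biological replicates. RNA was taken from whole animals, so fewer cells of a type and less RNA per cell cannot be told apart in any value given here.

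UBQL-1 is the worm ubiquilin. Ubiquilins carry a ubiquitin-like domain that binds the proteasome and a ubiquitin-associated domain that binds ubiquitin chains, and they act as shuttle factors that bring ubiquitinated proteins to degradation. They also bind hydrophobic segments of membrane and mitochondrial proteins, and belong to the machinery of ER-associated degradation.

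The values are read counts per gene, divided here by the TMM-scaled library size and called normalized counts. Counts are proportional to transcript length as well as abundance, so levels are compared between libraries for one gene and not between genes. Total counts lay between 18202151 and 29617839 per library, and the 10 most abundant genes held between 7.97% and 10.6% of a library. One library stood apart. On a first principal component with 57.7% of the variance, wildtype replicate 2 lay at -72.5, the other wildtype libraries at -30.1, -5.4 and -1.1, and the mutant libraries at 15.5, 11.3, 44.4 and 37.7. The groups did not overlap on this axis, and wildtype replicate 2 had the lowest counts of the 8 libraries for many cuticle collagen and sperm genes named below. The correlation of log2 CPM was 0.975 or more within wildtype, 0.985 or more within the mutant, and 0.95 or more overall.

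*ubql-1* (F15C11.2; chromosome I, 7021982 to 7029054) was measured first, as a check of the labels. The wildtype libraries held 3631, 3750, 3556 and 3598 normalized counts and the mutant libraries 1518, 1650, 1736 and 1519. Every mutant library lay under every wildtype library, and the spread within each genotype was small beside the gap between them. The study describes *tm1574* as a deletion that leaves a truncated mRNA at a reduced level, so a count of 0 was not to be looked for. *ubql-1* had the second smallest p of all genes tested and the smallest among those with lower counts (adjusted p = 1.13e-05). Every adjusted p given is that of the quasi-likelihood test of edgeR, adjusted by the Benjamini-Hochberg method. *hsf-1*, which encodes the heat shock transcription factor and is not altered in either strain, held 2185, 2322, 2067 and 2070 normalized counts in wildtype against 2047, 2118, 2016 and 2037 in the mutant. The groups overlapped, with a log2 fold change of -0.07 (adjusted p = 0.317, standard error 0.05). Of the 212 genes tested within 500000 bases of *ubql-1*, 12 passed an adjusted p of 0.05 (5.66%), against 8.31% of all genes. *crml-1*, 1 of the 12, is described below.

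The changes fell into 2 kinds that differed in size and in the genes concerned. Of 14183 genes tested, 328 had an adjusted p under 0.05 and a log2 fold change over 1 (2.31%), and 14 had an adjusted p under 0.05 and a log2 fold change under -1 (0.0987%). Without a fold change threshold the directions were even, with 594 genes higher (4.19%) and 584 lower (4.12%). The 594 higher genes had a median log2 fold change of 1.07 and a median of 114.9 normalized counts. The 584 lower genes had a median of -0.26 and a median of 1423 normalized counts, against 296.7 over all genes tested. Most of what passed with lower counts was thus abundant and fell by little. Changes this small pass the test mainly at high counts, so that level follows in part from the test. The even split of 594 and 584 depended on the scaling and on the libraries fitted. With RLE, another normalization, it was 606 higher and 632 lower. With libraries scaled to 3 housekeeping genes (*cdc-42*, *pmp-3* and *rpb-2*) it was 474 higher and 137 lower. All 16 libraries in one fit gave 854 higher and 61 lower. Over all genes the median log2 fold change was 0.03. It moved by 0.057 with the housekeeping genes and by 0.012 in the fit of all 16 libraries. Adding the replicate number to the fit as a block gave 755 genes higher (5.32%) and 24 lower (0.169%) past both thresholds. Past the adjusted p alone it gave 2290 higher and 1997 lower, the numbers to set beside the block counts of the lists below. The fit of the 8 libraries and the fits without 1 library did not include the block.

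The size of the first set varied with the libraries used. The 342 genes past both thresholds became 68, 188, 126 and 739 when wildtype replicates 1, 2, 3 and 4 were left out in turn, and 70, 259, 42 and 45 when mutant replicates 1, 2, 3 and 4 were. All 328 higher genes were higher in the mutant in each of the 4 pairs of libraries with the same replicate number, and in 324 of them the 4 mutant libraries lay above the 4 wildtype libraries. Both follow largely from choosing genes with higher counts, and over all 14183 genes 3175 had groups without overlap and 3823 were higher in all 4 pairs. They were mostly of low level, 62 with a mean under 20 normalized counts and 86 with a mean of at least 100, and their median fold was 2.66.

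**Figure D1:**
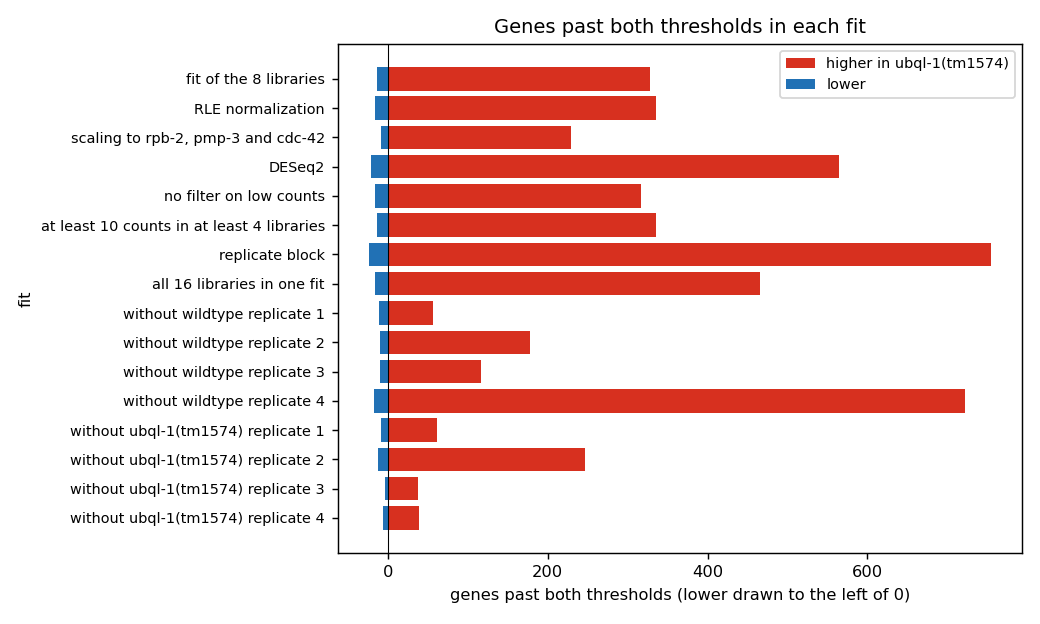
Number of genes past an adjusted p of 0.05 and an absolute log2 fold change of 1 (horizontal axis, genes) in the fit of the 8 libraries and in each alternative (vertical axis), with genes higher in *ubql-1(tm1574)* to the right and lower ones to the left of 0. The bar of higher genes runs from 38 without mutant replicate 3 to 755 with the replicate number as a block, and the bar of lower genes stays short throughout.

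Only 34 genes (0.24% of those tested) passed both thresholds in the fit of all 8 libraries and in each of the 8 fits without 1 library. Of these, 30 were higher and 4 lower. None had overlapping groups, which follows largely from the choice, and over all 14183 genes 3175 had groups without overlap. Y111B2A.25 (chromosome III, 12528287 to 12536848), annotated as a pseudogene, had the smallest p of all genes. It held 394, 427, 467 and 426 normalized counts in wildtype against 1468, 1398, 1516 and 1385 in the mutant. The mutant libraries were close to one another and far above the wildtype libraries, with a log2 fold change of 1.75 (adjusted p = 3.22e-06, standard error 0.06). It overlaps Y111B2A.27 on the other strand, and whether the counting used strand is not given in the sources used here.

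T20F7.1 (chromosome X, 16872926 to 16878287) rose from 483, 446, 397 and 388 normalized counts to 1474, 1732, 1155 and 1123, a log2 fold change of 1.68 (adjusted p = 0.00128, standard error 0.14). *pkhm-2* (T10B10.3; chromosome X, 15178096 to 15181465) rose from 770, 924, 792 and 732 to 2235, 2950, 2421 and 1813 (log2 fold change 1.55, standard error 0.14, adjusted p = 0.00128). *tbc-1* (F20D1.2; chromosome X, 14970751 to 14974776), which carries the TBC domain of Rab GTPase-activating proteins, rose from 518, 513, 529 and 547 to 1317, 1485, 1103 and 1058 (log2 fold change 1.24, standard error 0.10, adjusted p = 0.00125). In all 3 genes the wildtype libraries were tightly grouped, mutant replicate 2 was the highest library and mutant replicate 4 the lowest of the mutant. T20F7.1 overlaps *pkal-1* and *pkhm-2* overlaps *ucr-2.2* on the other strand.

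*pph-7* (Y71F9AL.4; chromosome I, 2903596 to 2907751), with a tyrosine phosphatase domain in the deposited annotation, rose from 260, 267, 291 and 264 normalized counts to 635, 620, 763 and 701 (log2 fold change 1.33, standard error 0.09, adjusted p = 0.000327). It overlaps *parp-1* on the other strand. *scrm-4* (F11A6.2; chromosome I, 11680504 to 11682364), of the phospholipid scramblase family, rose from 63.4, 97.7, 103 and 119 to 423, 351, 328 and 400 (log2 fold change 1.97, standard error 0.19, adjusted p = 0.00186), and overlaps *kpc-1* on the other strand. Neither gene had a mutant library within reach of the wildtype range.

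*acd-1* (C24G7.2; chromosome I, 4103713 to 4108045) and its neighbour *delm-2* (C24G7.1; 4109407 to 4112385) encode channel subunits of the degenerin and epithelial sodium channel family, members that are known from glia. *acd-1* rose from 8.75, 5.31, 10.8 and 3.26 normalized counts to 48.7, 46.4, 45.6 and 52.9 (log2 fold change 2.81, standard error 0.31, adjusted p = 0.00483). *delm-2* rose from 2.19, 1.06, 0 and 2.45 to 22.3, 14.8, 12.2 and 18 (log2 fold change 3.35, standard error 0.50, adjusted p = 0.0132). Both were barely counted in wildtype and present in all 4 mutant libraries, at a depth that leaves *delm-2* imprecise. *bus-5* (F53B1.4; chromosome X, 2111778 to 2113084), which is needed for a normal cuticle surface, rose from 6.56, 2.12, 7.18 and 6.53 to 48.7, 21.1, 60.8 and 52.9 (log2 fold change 3.01, standard error 0.42, adjusted p = 0.0127). It overlaps F53B1.2 on the other strand.

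Small RNA genes and short open reading frames were also among the 34. F09E10.15 (chromosome X, 1506302 to 1506390), annotated as a tRNA, rose from 87.5, 53.1, 29.9 and 62.8 normalized counts to 198, 259, 340 and 267 (log2 fold change 2.18, standard error 0.29, adjusted p = 0.011). F59C12.4 (chromosome X, 16602445 to 16602717), a short protein-coding gene, rose from 109, 78.6, 47.9 and 96.3 to 234, 268, 307 and 231 (log2 fold change 1.64, standard error 0.23, adjusted p = 0.0126). C18D4.6 (chromosome V, 17537651 to 17538373) rose from 49.2, 44.6, 39.5 and 46.5 to 200, 173, 139 and 198 (log2 fold change 1.97, standard error 0.16, adjusted p = 0.00118). The study purified mRNA on poly-dT beads before library preparation, a step that does not retain most tRNA.

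The remaining higher genes of the 34 were D1005.t1, Y116F11B.10, C40A11.8, ZC204.14, T26H5.9, F08F1.9, Y46H3A.4, F57H12.6, C09F9.2, F15B9.8, T19C3.2, F44E2.4, *lgx-1*, W06A11.4, K02E11.10, F40E10.5, *dao-4* and F30H5.3. Their log2 fold changes lay between 1.34 for ZC204.14 and 4.94 for F30H5.3, and *lgx-1* overlaps C54G7.14 on the other strand. Of the 34 genes, 11 lay on chromosome X, which holds 13.9% of the genes tested. There were 7 on V, 5 each on I and III, 4 on II and 2 on IV.

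**Figure D2:**
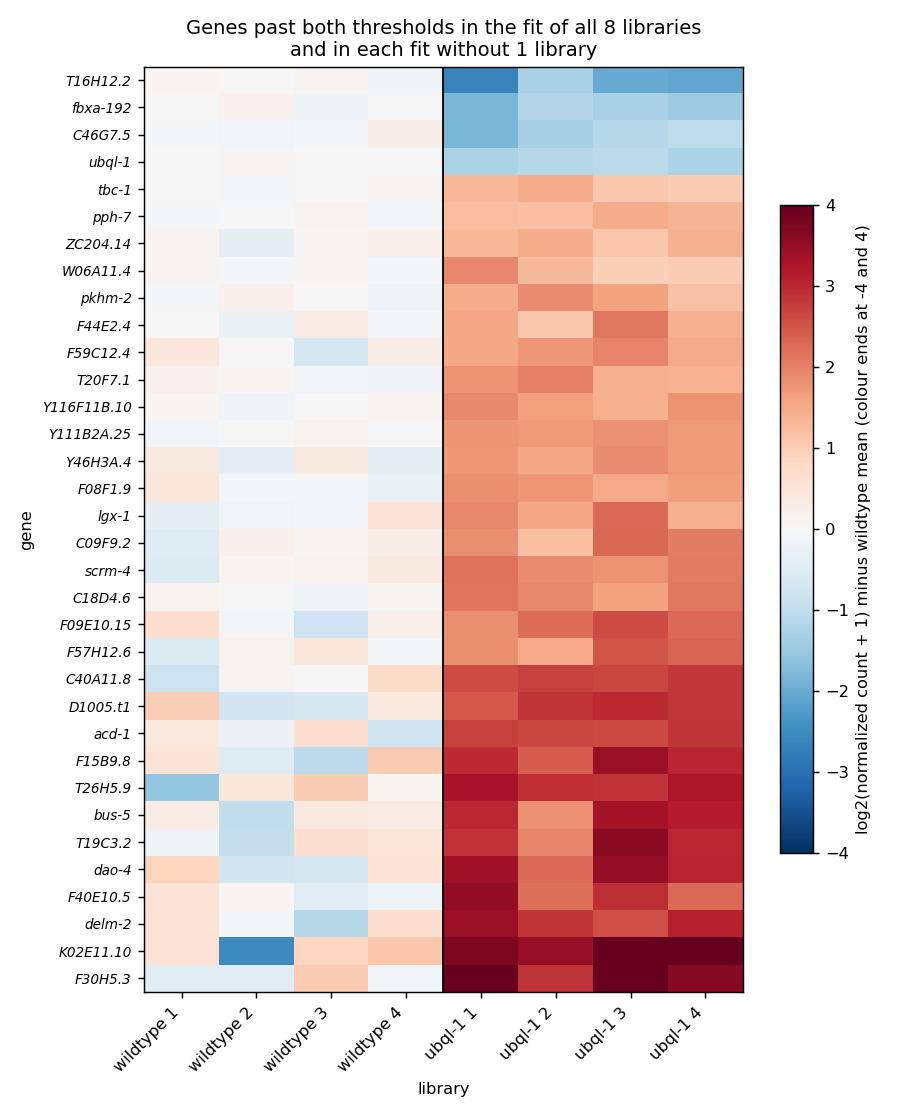
The 34 genes past both thresholds in the fit of all 8 libraries and in each fit without 1 library (vertical axis), in each of the 8 libraries (horizontal axis). Colour is the log2 of the normalized count plus 1, relative to the wildtype mean of that gene, with the scale ending at -4 and 4. The 30 higher genes are red in all 4 mutant columns and the 4 lower genes are blue in all 4.

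The largest rises were in genes that were almost uncounted in wildtype. W09B7.2 (chromosome V, 8828165 to 8829909) held 0, 8.50, 0 and 4.08 normalized counts in wildtype against 44.6, 47.5, 278 and 273 in the mutant (log2 fold change 5.56, standard error 0.97, adjusted p = 0.0193). ZK1025.3 (chromosome I, 11460968 to 11463068) held 1.09, 0, 1.20 and 0 in wildtype against 24.4, 10.6, 18.2 and 34.9 in the mutant. Its 2 wildtype counts against 87 mutant counts gave a ratio of 41.8 per sequenced count, with a 95% interval of 11.2 to 350 that covers counting error only. F30H5.3 (chromosome III) held 1.09, 1.06, 4.79 and 1.63 in wildtype against 81.2, 20.0, 126 and 34.9 in the mutant, and overlaps F30H5.8 on the same strand. In these 3 genes every mutant library lay above every wildtype library, but the mutant libraries differed severalfold from each other, so the sizes are imprecise. H42K12.3, a transcribed region outside the annotation and K02E11.10 followed, with log2 fold changes of 3.96, 3.75 and 3.55.

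Of the 15 largest rises, 6 belong to cuticle collagens or to the apical extracellular matrix that is laid down at moults. The nematode cuticle is built mainly of collagens, and each larval stage lays down a new one in a fixed order of collagen genes before the old one is shed. *rol-6* (T01B7.7; chromosome II), a collagen whose mutants roll, held 9.84, 1.06, 10.8 and 8.16 normalized counts in wildtype against 89.3, 24.3, 166 and 119 in the mutant (log2 fold change 3.74, standard error 0.64, adjusted p = 0.0188). *bli-2*, a collagen needed to prevent cuticle blisters, rose by 3.45 on the log2 scale (adjusted p = 0.0243, standard error 0.65) and *sqt-2*, a body-shape collagen, by 3.36 (adjusted p = 0.0195, standard error 0.59). *lpr-3*, *lpr-5* (apical matrix lipocalins) and *grl-7* (a ground-like secreted peptide) rose by 3.31, 3.42 and 3.44. In each of these 6 genes mutant replicate 2 was the lowest mutant library, and in *rol-6*, *bli-2*, *sqt-2*, *lpr-5* and *grl-7* wildtype replicate 2 was the lowest wildtype library. *bli-2* overlaps *zyg-1* on the other strand, and collagens share sequence, so reads could have been assigned to either of a pair.

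As a list, 18 body-shape collagens were tested and all had positive log2 fold changes, with a median of 2.48 against 0.03 over all genes. Past both thresholds were 9, against 2.31% of all genes with higher counts. They were *rol-6*, *bli-2*, *sqt-2*, *sqt-1*, *dpy-7*, *lon-3*, *dpy-13*, *rol-8* and *sqt-3*. *dpy-13* held 120, 5.31, 201 and 95.5 normalized counts in wildtype against 492, 452, 883 and 707 in the mutant (log2 fold change 2.60, standard error 0.62, adjusted p = 0.0411). *lon-3* held 8.75, 7.44, 14.4 and 15.5 in wildtype against 106, 26.4, 133 and 68.5 in the mutant (log2 fold change 2.84, standard error 0.49, adjusted p = 0.0194). *sqt-3* held 97.3, 73.3, 160 and 179 in wildtype against 440, 225, 678 and 518 in the mutant (log2 fold change 1.86, standard error 0.36, adjusted p = 0.0276). The genotypes did not overlap in these 3 genes, but both genotypes varied severalfold among their own replicates.

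The other 9 did not pass both thresholds. *dpy-5* held 75.4, 0, 297 and 87.3 in wildtype against 427, 442, 894 and 807 in the mutant (log2 fold change 2.50, standard error 0.80, adjusted p = 0.0723), and *dpy-17* held 52.5, 129, 122 and 115 against 118, 107, 139 and 85.4 (log2 fold change 0.11, standard error 0.27, adjusted p = 0.812). Summed over the list, wildtype held 1363, 992, 2383 and 1505 normalized counts and the mutant 3841, 2860, 7219 and 5273. The sums did not overlap, and within pairs of the same replicate number the mutant was 2.82, 2.88, 3.03 and 3.5 times as high. With the replicate number as a block 15 of the 18 passed both thresholds. Without wildtype replicate 1 none of the 18 passed, and without wildtype replicates 2, 3 and 4 the numbers were 9, 4 and 9. Without mutant replicates 1, 2, 3 and 4 they were 3, 10, 1 and 0.

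The genes of moulting and of the apical matrix moved in the same direction. Of 31 tested, 11 passed both thresholds, all higher, against 2.31% of all genes. The median log2 fold change was 0.42. *mlt-11*, a protease inhibitor required for moulting, held 18.6, 20.2, 22.7 and 20.4 normalized counts in wildtype against 160, 58.0, 384 and 120 in the mutant. The wildtype libraries were level, while the mutant libraries differed severalfold and lay above all of them. *noah-1*, a zona pellucida domain protein of the apical matrix, held 72.2, 97.7, 79.0 and 71.8 in wildtype against 224, 112, 291 and 192 in the mutant (log2 fold change 1.36, standard error 0.27, adjusted p = 0.0278). *acn-1*, related to angiotensin-converting enzyme and required for moulting, held 50.3, 49.9, 55.0 and 57.9 in wildtype against 138, 81.2, 200 and 160 in the mutant (log2 fold change 1.44, standard error 0.25, adjusted p = 0.0196). The others were *lpr-3*, *wrt-10*, *ptr-4*, *mlt-8*, *qua-1*, *mlt-9*, *sym-1* and *fbn-1*, with log2 fold changes between 1.23 and 3.31. The summed level of the list was 1.18, 1.11, 1.18 and 1.13 times wildtype within pairs. Without wildtype replicate 1 or mutant replicates 3 or 4, only 1 member passed, and without mutant replicate 1, 2 members did. Without wildtype replicates 2 and 3 in turn 6 and 3 did, and in the fit of all 16 libraries 2.

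Hedgehog-related and patched-related genes, which in nematodes act largely in the epidermis and at moults, gave 7 higher genes of 52 tested. Their median log2 fold change was 0.42, and over all genes 2.31% were higher past both thresholds. The 7 became 0 in the fit of all 16 libraries and without mutant replicate 3 or 4, 1 without wildtype replicate 1 or mutant replicate 1, 2 without wildtype replicate 3 and 4 without wildtype replicate 2. Among them were *wrt-4*, *wrt-6* and *wrt-10* of the warthog family and the patched-related *ptr-4*. *wrt-4* held 12, 6.37, 26.3 and 6.53 normalized counts in wildtype against 68.0, 27.4, 87.4 and 76.9 in the mutant (log2 fold change 2.38, standard error 0.49, adjusted p = 0.0318). *ptc-1*, a patched homologue needed in the germline, fell from 14729, 16666, 14484 and 13563 to 12589, 13183, 11727 and 11838 (log2 fold change -0.27, standard error 0.07, adjusted p = 0.0475). *lin-42*, the period homologue that cycles with the moults, held 98.4, 124, 110 and 108 in wildtype against 185, 124, 288 and 220 in the mutant. Mutant replicate 2 equalled the highest wildtype library, and the log2 fold change was 0.89 (adjusted p = 0.0467, standard error 0.23).

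Among the numbered cuticle collagens, the *col-* genes, 13 of 110 tested passed both thresholds, all higher, against 2.31% of all genes. The median log2 fold change was 0.61. The block raised the 13 to 41, with 5.32% of all genes higher in that fit. *col-63* held 28.4, 8.50, 67.0 and 47.3 normalized counts in wildtype against 235, 182, 435 and 358 in the mutant (log2 fold change 3.0, standard error 0.49, adjusted p = 0.0162). *col-17* held 32.8, 0, 47.9 and 46.5 in wildtype against 216, 121, 333 and 200 in the mutant (log2 fold change 2.77, standard error 0.64, adjusted p = 0.0379). The summed level of the family was nearly the same in both genotypes, with pair ratios of 1.02, 0.933, 0.973 and 1.01. Of 9 adult cuticle collagens tested, 7 had positive log2 fold changes, with a median of 1.23. Past both thresholds were 3, all higher, against 2.31% of all genes, with *rol-6* of the body-shape list counted again among them. The 3 became 5 with the block and 0 without wildtype replicate 1 or mutant replicates 3 or 4. The summed level of the 9 was 0.96, 0.874, 0.923 and 0.972 times wildtype within pairs. The abundant collagens of the adult cuticle *col-19* and *col-119* did not pass. *col-19* held 41137, 46553, 47350 and 46044 in wildtype against 42019, 41054, 43452 and 44345 in the mutant (log2 fold change -0.08, standard error 0.06, adjusted p = 0.373). *col-119* had a log2 fold change of -0.17 (adjusted p = 0.105, standard error 0.06). Without wildtype replicate 2, in which *col-17*, *dpy-5* and *sqt-1* were at 0, the number of *col-* genes past both thresholds was 13. It was 9 without wildtype replicate 3 or 4, 6 without mutant replicate 2, 1 without mutant replicate 1, and 0 without wildtype replicate 1 or mutant replicates 3 or 4.

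**Figure D3:**
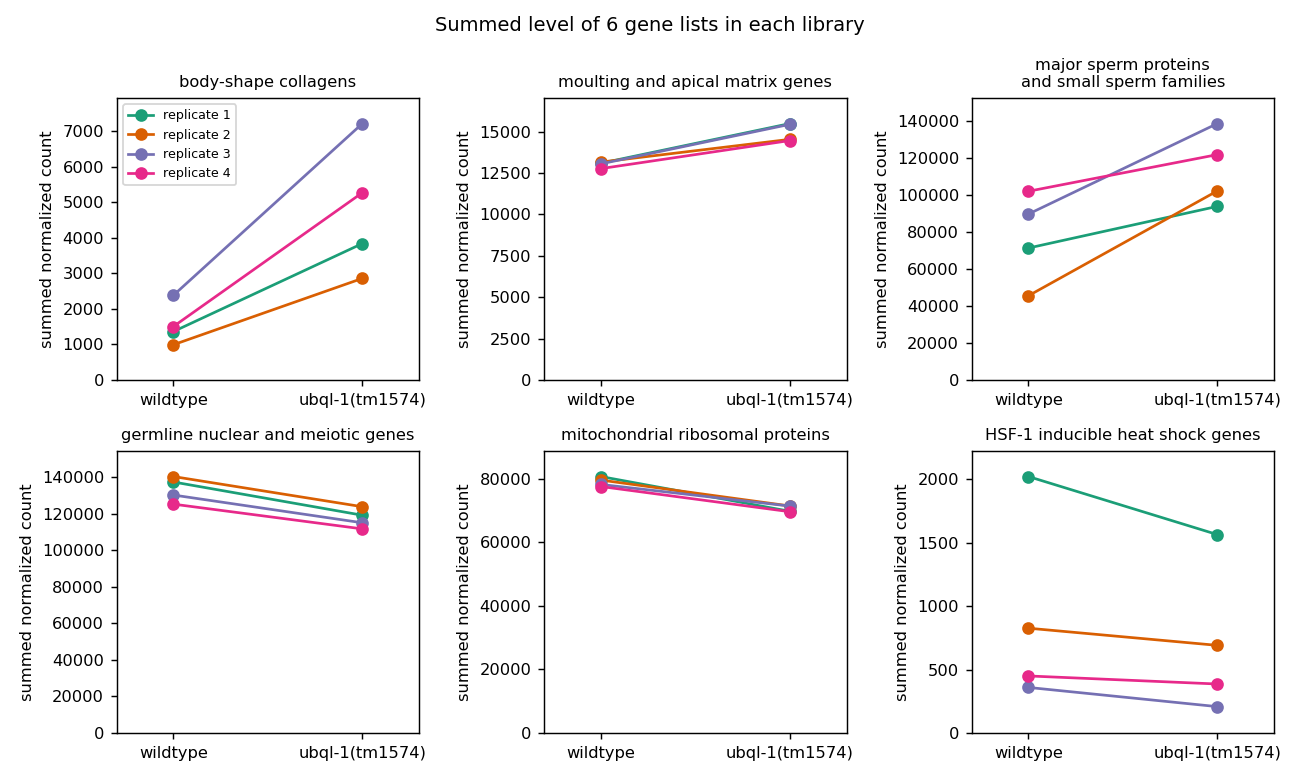
Summed normalized counts of 6 gene lists (vertical axes, from 0) in wildtype and *ubql-1(tm1574)* libraries (horizontal axes), with a line for each replicate number. Body-shape collagens rise along all 4 lines and the sums do not overlap, germline and mitochondrial ribosomal genes decline along all 4, and the inducible heat shock genes are highest in replicate 1 and lowest in replicate 3 of both genotypes.

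Genes of sperm were also higher. *C. elegans* hermaphrodites make sperm as late larvae and then switch to oocytes, so sperm transcripts are left over in young adults. Of 35 spermatogenesis genes tested, 28 had positive log2 fold changes, with a median of 0.68. Past an adjusted p of 0.05 were 5, all higher, against 4.19% of all genes. *fog-3*, which commits germ cells to sperm, held 23.0, 15.9, 22.7 and 36.7 normalized counts in wildtype against 76.1, 62.2, 41.8 and 67.3 in the mutant (log2 fold change 1.3, standard error 0.29, adjusted p = 0.0356). *spe-41*, a sperm calcium channel needed at fertilization, held 267, 219, 316 and 376 in wildtype against 460, 368, 545 and 547 in the mutant (log2 fold change 0.70, standard error 0.18, adjusted p = 0.0472). The groups of *spe-41* overlapped, since wildtype replicate 4 lay above mutant replicate 2. *spe-49* and *swm-1* (an inhibitor of early sperm activation) rose by 1.27 and 0.41. With the block 22 of the 35 passed the adjusted p with higher counts, against 2290 of all 14183 genes. Past both thresholds were 3 of the 35 in the fit of all 8 libraries, 9 without wildtype replicate 4, and none without any other library.

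The major sperm proteins and small sperm families gave 1 gene of 86 past both thresholds, *msp-74*, against 2.31% of all genes with higher counts. Their median log2 fold change was 0.53, with 73 positive members. Their summed level was 71182, 45429, 89513 and 101824 in wildtype against 93677, 102021, 138362 and 121612 in the mutant. The sums overlapped, wildtype replicate 2 was lowest by far, and the pair ratios were 1.32, 2.25, 1.55 and 1.19. These genes are near-identical copies, and reads are divided among them by the counting.

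The genes were also grouped by the protein domain in the deposited annotation, a step chosen after the values were seen. Of 87 genes tested with a tyrosine phosphatase domain, 15 passed both thresholds with higher counts (17.2%) and none with lower. Of 37 with a WSN domain 7 did (18.9%), of 108 with a collagen domain 17 (15.7%), and of 253 with a protein kinase domain 11 (4.35%), against 2.31% of all genes. Beside *pph-7*, most of these phosphatase and kinase genes have no assigned role. For the same mutation in the libraries labelled *hsf-1* OE, the median log2 fold changes of these domains were -0.07, 0.02, -0.32 and 0.04, in that order.

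Opposite to the sperm genes, germline and oocyte genes were lower by small amounts. All 29 germline nuclear and meiotic genes tested had negative log2 fold changes, with a median of -0.20. Past an adjusted p of 0.05 were 10, against 4.12% of all genes with lower counts. *htp-1*, a HORMA domain protein of the meiotic chromosome axis, fell from 2321, 2030, 1968 and 2044 normalized counts to 1614, 1662, 1623 and 1465 (log2 fold change -0.39, standard error 0.06, adjusted p = 0.0162). *syp-4*, of the synaptonemal complex, fell from 3045, 2981, 2934 and 2926 to 2562, 2561, 2485 and 2392 (log2 fold change -0.25, standard error 0.04, adjusted p = 0.0162). *wago-4*, a germline Argonaute, fell from 4095, 4291, 3512 and 3644 to 2844, 3063, 3152 and 3113 (log2 fold change -0.35, standard error 0.07, adjusted p = 0.0277). The genotypes did not overlap in these 3 genes, and replicates differed by little.

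The other 7 were *htp-2*, *htp-3* and *him-3* of the chromosome axis, *syp-2*, the Notch receptor gene *glp-1*, the P granule gene *pgl-1* and the Nanos homologue *nos-3*, with log2 fold changes between -0.32 and -0.19. Summed over the list, wildtype held 137341, 140328, 130201 and 125213 normalized counts and the mutant 119144, 123802, 115011 and 111665, without overlap and at 0.868 to 0.892 times wildtype within pairs. With the block 21 of the 29 passed the adjusted p with lower counts, against 1997 of all 14183 genes. Without wildtype replicates 1 to 4 in turn 3, 5, 4 and 12 did, without mutant replicates 1 and 2 in turn 3 and 10, and without mutant replicate 3 or 4 none. In the fit of all 16 libraries all 29 were negative and none passed. Scaling to the 3 housekeeping genes moved the median of all genes by 0.06 on the log2 scale, and then 26 of the 29 were negative, with a median of -0.14, and 3 fell.

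All 21 genes of the eggshell and oocyte had negative log2 fold changes, with a median of -0.26. The adjusted p was passed by 3, against 4.12% of all genes with lower counts. *egg-4* and *egg-5*, pseudophosphatases of the egg-to-embryo transition, were near-identical in change at -0.27 and -0.29 and are close paralogs. *egg-6*, a leucine-rich repeat protein that also acts in excretory epithelia, fell by 0.30. *cbd-1*, a chitin-binding eggshell protein, held 43981, 57963, 42551 and 41014 normalized counts in wildtype against 36621, 38621, 34011 and 35046 in the mutant. The groups did not overlap but wildtype replicate 2 was far above the rest, and the log2 fold change of -0.36 did not pass (adjusted p = 0.0633, standard error 0.11). With the block 17 of the 21 passed with lower counts, against 1997 of all 14183 genes. With scaling to the housekeeping genes, or in the fit of all 16 libraries, all 21 were negative and none passed. The 3 became 0 without wildtype replicate 1 or 3 or mutant replicate 1, 3 or 4, 1 without wildtype replicate 2, 9 without wildtype replicate 4 and 5 without mutant replicate 2. Of 16 early embryo genes 14 were negative, with a median of -0.20, and none passed, while 11 passed with lower counts with the block. The vitellogenins, yolk proteins made in the adult intestine, had log2 fold changes between 0.02 and 0.12 and none passed. The medians of the sperm and moulting lists were thus positive and those of the oocyte and embryo lists negative, with few members past the test, and the part of germline content and of developmental stage in the other differences was not tested.

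Mitochondrial ribosomal protein genes formed the list with most members past the adjusted p. Of 70 tested, 69 had negative log2 fold changes, with a median of -0.19, and 21 fell, against 4.12% of all genes. *mrpl-34* went from 811, 828, 729 and 699 normalized counts to 559, 622, 602 and 581 (log2 fold change -0.38, standard error 0.07, adjusted p = 0.0275), and overlaps *aha-1* on the other strand. *mrpl-20* went from 733, 767, 671 and 682 to 552, 567, 555 and 553 (log2 fold change -0.36, standard error 0.06, adjusted p = 0.0203). *mrpl-39* went from 1048, 1056, 964 and 964 to 781, 810, 807 and 773 (log2 fold change -0.35, standard error 0.05, adjusted p = 0.0147). In each gene all mutant libraries lay under all wildtype libraries.

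The sums of the list did not overlap either, at 80674, 79557, 78182 and 77530 normalized counts in wildtype against 69734, 71412, 71375 and 69598 in the mutant. The number that fell was 40 with the block, against 1997 of all 14183 genes. When single libraries were left out, it lay between 0 without mutant replicate 4 and 21 without wildtype replicate 4. It was 2 without wildtype replicate 1 or mutant replicate 1, 7 without wildtype replicate 2, 6 without wildtype replicate 3, 10 without mutant replicate 2 and 1 without mutant replicate 3. With scaling to the housekeeping genes 67 of the 70 were negative, with a median of -0.13, and 3 fell, and in one fit of all 16 libraries 3 fell. The 78 cytosolic ribosomal protein genes had a median of -0.09 and none passed. None of the 13 genes of the mitochondrial genome passed, with a median of 0.03.

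**Figure D4:**
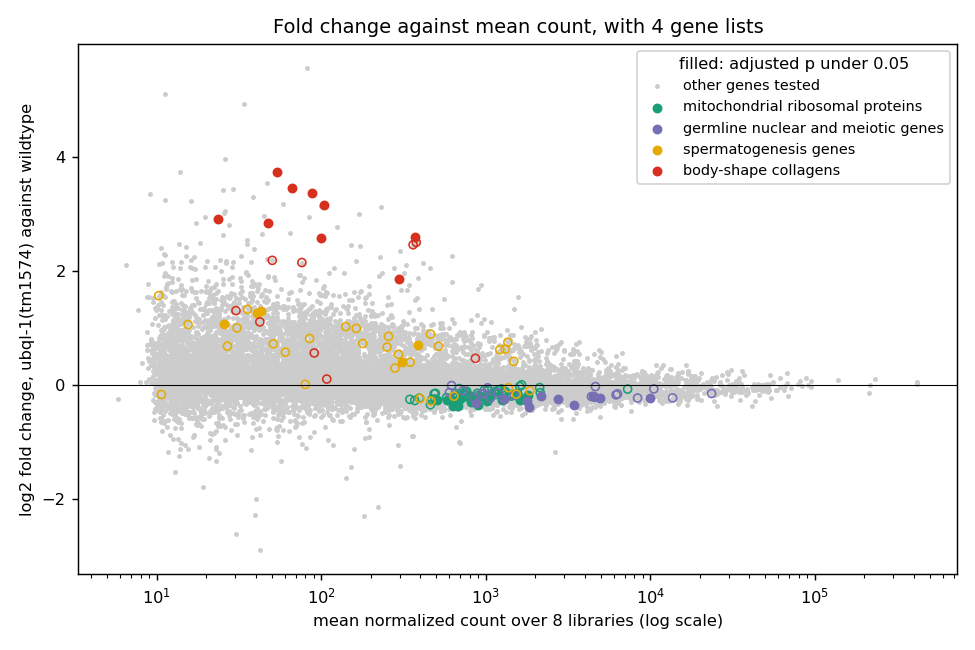
Log2 fold change between *ubql-1(tm1574)* and wildtype (vertical axis) against the mean normalized count over 8 libraries (horizontal axis, log scale) for all 14183 genes tested, with 4 lists in colour and filled points for an adjusted p under 0.05. Body-shape collagens lie high at low counts with a median of 2.48, spermatogenesis genes in between, and germline and mitochondrial ribosomal genes just under 0 at high counts, with medians of -0.20 and -0.19.

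Of genes for the shape and inner membrane of mitochondria, 4 of 15 passed the adjusted p, against 8.31% of all genes. *fis-2*, a homologue of the fission factor Fis1, rose from 319, 342, 310 and 320 normalized counts to 489, 516, 416 and 430 (log2 fold change 0.52, standard error 0.09, adjusted p = 0.0213). The mitofilin homologues *immt-1* and *immt-2*, of the complex that holds cristae junctions, moved in opposite directions. *immt-1* went from 2081, 2190, 2151 and 2076 to 2494, 2346, 2365 and 2440 (log2 fold change 0.18, standard error 0.04, adjusted p = 0.0362), and *immt-2* from 3007, 3161, 3080 and 2939 to 2319, 2421, 2564 and 2370 (log2 fold change -0.33, standard error 0.05, adjusted p = 0.0126). The prohibitin gene *phb-2* fell by 0.25 (adjusted p = 0.0169, standard error 0.04).

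The fusion and fission GTPases did not pass. *fzo-1* (mitofusin) had a log2 fold change of -0.09 (adjusted p = 0.262, standard error 0.05), *eat-3* (OPA1) of -0.13 (adjusted p = 0.111, standard error 0.05) and *drp-1* (dynamin-related) of -0.09 (adjusted p = 0.18, standard error 0.04). Of 13 genes of the mitochondrial unfolded protein response only *spg-7*, a mitochondrial protease, passed, from 2985, 3297, 3067 and 3280 normalized counts to 2830, 2702, 2807 and 2761 (log2 fold change -0.19, standard error 0.05, adjusted p = 0.0436). The chaperone *hsp-6*, its usual reporter gene, had a log2 fold change of -0.05 (adjusted p = 0.588, standard error 0.06).

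Genes of protein quality control, the pathway of ubiquilins, held few calls. Of 17 genes for ubiquitin and ubiquitin shuttles, *ubql-1* itself and *smo-1*, which encodes SUMO, passed. *smo-1* fell from 6184, 6880, 6412 and 6193 normalized counts to 5082, 5735, 5035 and 5356 (log2 fold change -0.28, standard error 0.06, adjusted p = 0.031). The polyubiquitin gene *ubq-1* held 26272, 28353, 26174 and 25995 in wildtype against 23997, 25291, 22528 and 24041 in the mutant. These did not overlap, with a log2 fold change of -0.16 that did not pass (adjusted p = 0.091, standard error 0.06). The other shuttle factor *rad-23* had a log2 fold change of -0.03 (adjusted p = 0.808, standard error 0.08). All 17 had negative log2 fold changes, 15 of them with scaling to the housekeeping genes. The median was -0.12, and with the block 10 passed the adjusted p with lower counts, against 1997 of all 14183 genes.

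None of 33 proteasome genes passed, with log2 fold changes between -0.15 and 0.25 and a median of -0.07. None of 15 genes of the CDC-48 complex and its cofactors passed, with a median of -0.05. *cdc-48.1*, which encodes the AAA ATPase that extracts ubiquitinated proteins, had a log2 fold change of -0.03 (adjusted p = 0.8, standard error 0.07), and its cofactor gene *ufd-1* of 0.01 (adjusted p = 0.888, standard error 0.05). *npl-4.1*, another cofactor, held 840, 1113, 573 and 543 normalized counts in wildtype against 593, 569, 612 and 572 in the mutant, with wildtype replicates 1 and 2 high and the others level with the mutant (log2 fold change -0.39, standard error 0.20, adjusted p = 0.214). None of 22 genes for protein folding in the ER and for ER-associated degradation passed, with a median of 0.02.

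Of 19 constitutive cytosolic chaperones, all had negative log2 fold changes, 17 of them with scaling to the housekeeping genes, with a median of -0.18. The one that passed was the chaperonin subunit *cct-5*, from 13859, 13711, 13695 and 12323 normalized counts to 11721, 11190, 11219 and 10333 (log2 fold change -0.27, standard error 0.06, adjusted p = 0.0336). With the block 14 passed with lower counts, against 1997 of all 14183 genes. The 8 inducible heat shock genes tested had a median of -0.38 and none passed. *hsp-70* held 973, 222, 93.3 and 169 normalized counts in wildtype against 708, 288, 93.4 and 172 in the mutant (log2 fold change -0.21, standard error 0.77, adjusted p = 0.875). Replicate 1 was highest and replicate 3 lowest in both genotypes, and *hsp-16.2* and *hsp-16.41* had the same order. The summed level of the list went from 2023, 826, 359 and 450 to 1565, 691, 207 and 386, which were 0.773, 0.836, 0.578 and 0.858 times wildtype within pairs.

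The 14 genes past both thresholds with lower counts included 3 F-box genes, of the family whose products recruit substrates to ubiquitin ligases. Of 122 F-box A and B genes tested, 3 fell and 2 (*fbxa-183* and *fbxa-223*) rose past both thresholds. Over all genes 0.0987% fell and 2.31% rose. *fbxa-192* and *fbxa-193* are neighbours on chromosome V. The pseudogene *fbxa-129* (F59A1.8; chromosome V, 17655581 to 17656654), next to *fbxa-193*, was lower too, from 165, 150, 130 and 137 normalized counts to 64.9, 84.4, 67.6 and 82.9 (log2 fold change -0.96, standard error 0.15, adjusted p = 0.0147), a gene chosen after its values were seen. *fbxa-181* fell from 30.6, 38.2, 31.1 and 33.5 to 17.3, 16.9, 12.2 and 12 (log2 fold change -1.19, standard error 0.22, adjusted p = 0.0226). Reads of such relatives can be assigned to one another.

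T16H12.2 (chromosome III, 10086303 to 10087060) was, with *ubql-1*, *fbxa-192* and C46G7.5, 1 of the 4 falls that passed both thresholds whichever library was left out. It went from 67.8, 62.7, 68.2 and 57.1 normalized counts to 9.13, 25.3, 15.2 and 14.4 (log2 fold change -1.99, standard error 0.27, adjusted p = 0.0126). C46G7.5 (chromosome IV, 6010352 to 6011645) went from 76.5, 74.4, 79.0 and 96.3 to 22.3, 31.6, 36.5 and 39.7 (log2 fold change -1.33, standard error 0.20, adjusted p = 0.0147). *dod-24*, a gene regulated by DAF-16 and used as an immune marker, went from 817, 770, 1090 and 1057 to 483, 357, 441 and 561 (log2 fold change -1.02, standard error 0.16, adjusted p = 0.0147). The lectin gene *clec-52* held 150, 510, 613 and 476 in wildtype against 133, 155, 207 and 159 in the mutant, so that wildtype replicate 1 lay inside the mutant range (log2 fold change -1.41, standard error 0.36, adjusted p = 0.0459). The rest were T12G3.4, *fbxa-193*, *tag-276*, *lrg-1*, C38D4.10, K02B12.2 and a transcribed region outside the annotation, with log2 fold changes between -2.30 and -1.03. T12G3.4 overlaps *bre-5* on the other strand, so its counts are uncertain.

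*crml-1* (K07G5.1; chromosome I, 7152460 to 7156786), a homologue of the actin capping protein regulator CARMIL, fell from 4305, 4029, 3928 and 4093 normalized counts to 2722, 2750, 2627 and 2684. No library of either genotype lay near the other genotype, and the log2 fold change of -0.60 had 1 of the 10 smallest p in the table (adjusted p = 0.000334, standard error 0.04) without reaching the fold change threshold. It overlaps K07G5.7 on the same strand. *gly-13* (B0416.6; chromosome X, 9293666 to 9296622), an N-acetylglucosaminyltransferase of N-glycan synthesis, rose from 585, 498, 599 and 577 to 1197, 1057, 974 and 1107 (log2 fold change 0.94, standard error 0.08, adjusted p = 0.00128).

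Lists for immunity, metabolism and other tissues were also examined. Of 97 C-type lectin genes 6 rose past both thresholds, against 2.31% of all genes, and *clec-52* fell, with a median of 0.24. Past the adjusted p alone 12 were higher and 3 lower, against 4.19% and 4.12% of all genes. The 6 became 11 with the block, 12 without wildtype replicate 4, 4 without wildtype replicate 2, 2 without mutant replicate 2, and 0 without any other library. *clec-119* held 103, 49.9, 146 and 171 normalized counts in wildtype against 239, 230, 356 and 331 in the mutant (log2 fold change 1.29, standard error 0.33, adjusted p = 0.0453). *clec-10* went from 457, 312, 366 and 405 to 705, 619, 792 and 671 (log2 fold change 0.86, standard error 0.12, adjusted p = 0.0127). The lysozyme gene *lys-8* went from 2971, 2884, 3004 and 2893 to 3814, 3621, 3621 and 3619 (log2 fold change 0.32, standard error 0.04, adjusted p = 0.00788), and the cathepsin B-like protease gene *cpr-1* from 1859, 2000, 2258 and 1687 to 3094, 2756, 3530 and 3056 (log2 fold change 0.67, standard error 0.10, adjusted p = 0.0127). The genotypes did not overlap in these 4 genes.

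Of 47 genes of lipid synthesis, storage and breakdown, *elo-8*, a fatty acid elongase homologue, and *fat-3*, the delta-6 desaturase of polyunsaturated fatty acid synthesis, passed the adjusted p. Over all genes 4.19% passed it with higher counts. *elo-8* held 70.0, 39.3, 102 and 113 normalized counts in wildtype against 138, 160, 233 and 183 in the mutant (log2 fold change 1.14, standard error 0.30, adjusted p = 0.0498). *fat-3* held 3094, 2687, 3449 and 3188 in wildtype against 4597, 3812, 4406 and 3625 in the mutant (log2 fold change 0.41, standard error 0.09, adjusted p = 0.0393). Both had separate groups, with wildtype replicate 2 the lowest library. The linker histone gene *hil-3* rose from 47.0, 39.3, 25.1 and 20.4 to 101, 99.2, 88.9 and 85.4 (log2 fold change 1.51, standard error 0.25, adjusted p = 0.0173). Of 17 epidermis markers, 10 were positive and 7 negative, with a median of 0.06. Past both thresholds with higher counts were 3, against 2.31% of all genes, with *rol-6* of the body-shape list counted again among them. Markers of body wall muscle, pharynx, neurons and intestine had medians of 0.09, 0.40, 0.18 and 0.14. All 11 pharynx genes were positive and none passed. With the block 8 passed with higher counts, against 2290 of all 14183 genes.

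The same mutation was then followed in the libraries labelled *hsf-1* OE, which share no library with the comparison above. Those labels rest on a transgene that the *hsf-1* counts did not show in every library, at 72.3, 88.7, 116 and 78.4 CPM against 90.1 to 97.9 in wildtype, so the name is that of the label. With the mutation they were 122, 99.5, 146 and 145 CPM, all above wildtype and 3 of the 4 above every library without the mutation, and the part of this in the values below was not tested. There 73 genes (0.469%) were higher and 72 (0.463%) lower past an adjusted p of 0.05, of 15555 tested. *ubql-1* held 4307, 4304, 4044 and 4129 normalized counts without the mutation and 1600, 1476, 1492 and 1424 with it. Of 1174 genes past the adjusted p against wildtype and tested in both, 38 also passed there, and all 38 had the same direction, 34 higher and 4 lower. They were 3.24% of the former and 31.1% of the 122 genes past the adjusted p in the second background and tested in both. These genes were chosen after their values were seen. A change shared by both backgrounds does not separate the deletion from other variants that JPL52 may carry. Chromosomes X and V held 13 each, with 13.9% and 18.9% of the genes tested against wildtype.

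Y111B2A.25 held 499, 420, 435 and 401 normalized counts in the *hsf-1* OE libraries and 1787, 1694, 1838 and 1490 with the mutation (log2 fold change 1.96, adjusted p = 2.1e-05), nearly the levels of the first comparison. T20F7.1 went from 406, 377, 347 and 329 to 902, 2036, 1531 and 1276 (log2 fold change 1.98, adjusted p = 0.00367), and *pkhm-2* from 555, 648, 586 and 697 to 978, 2126, 1711 and 1714 (log2 fold change 1.39, adjusted p = 0.0139). In both genes replicate 1 was the lowest mutant library of the second background but not of the first. *acd-1* went from 28.7, 48.9, 38.3 and 48.2 to 107, 127, 126 and 103 (log2 fold change 1.49, adjusted p = 0.0115). C46G7.5, low throughout that background, went from 36.9, 23.5, 17.4 and 28.0 to 9.43, 5.81, 13.4 and 5.43 without passing (log2 fold change -1.63, adjusted p = 0.0961).

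The 38 also held genes of other families. *lin-15B*, a repressor of germline genes in somatic cells, went from 944, 1110, 936 and 985 normalized counts in wildtype to 2389, 1848, 1481 and 1547 in the mutant (log2 fold change 0.87, standard error 0.14, adjusted p = 0.0166), and its log2 fold change in the other background was 1.04 (adjusted p = 0.0368). *lin-15A*, its neighbour in the genome, had 0.85 and 1.24. *vps-52*, of the Golgi-associated retrograde protein complex, had 1.13 and 0.96, and overlaps *apy-1* on the other strand. The lysozyme gene *lys-7* went from 527, 843, 737 and 575 to 1229, 1283, 874 and 1113 (log2 fold change 0.75, standard error 0.16, adjusted p = 0.0354), and from 2492, 2036, 1650 and 2370 to 5154, 3821, 4048 and 4638 in the other background (log2 fold change 1.05, adjusted p = 0.0104). Lower in both, beside *ubql-1*, were C53H9.3, E02H9.7 and *mbf-1*.

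**Figure D5:**
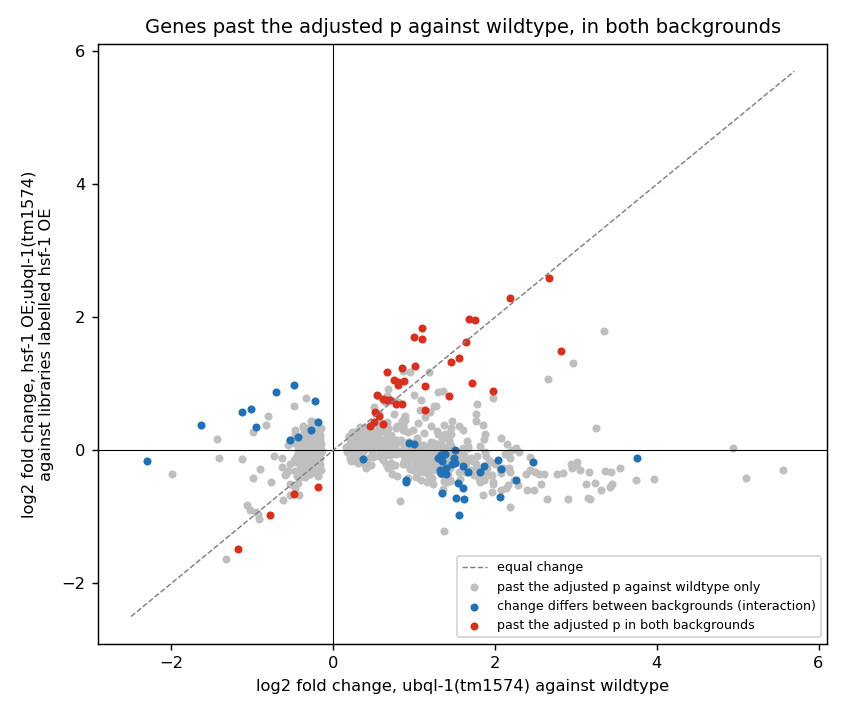
Log2 fold change of genes past the adjusted p between *ubql-1(tm1574)* and wildtype (horizontal axis) against their log2 fold change for the same mutation in the libraries labelled *hsf-1* OE (vertical axis), with colours for the genes past the adjusted p in both and for those past the interaction test, and a dashed line for equal change. The 38 genes past it in both lie in the upper right and lower left, while most large rises against wildtype lie near 0 on the vertical axis.

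Most of the large rises were not seen in the second background. Of the 328 higher genes 326 were tested there, and 98 were higher and 228 lower with the mutation, with a median log2 fold change of -0.11. Past the adjusted p were 16 of them, all higher. Of the 34 genes kept in every fit, 24 had the same sign there. The difference itself was tested as an interaction in one fit of all 16 libraries. It passed for 103 of 15645 genes (0.658%), and for 1597 with the replicate number as a block. Of the 328 higher genes 31 passed it, 230 with the block. These genes were chosen for a large change in wildtype and mutant libraries that also enter the interaction, so the sign of the interaction over them is largely set by that choice and is not read here.

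*pph-7* had the clearest difference of the genes named. It held 1081, 982, 1110 and 1043 normalized counts in the *hsf-1* OE libraries and 879, 980, 1054 and 1101 with the mutation, all above the highest mutant library of the first comparison on that table's own scale. Its log2 fold change there was -0.07 (adjusted p = 0.84), and the interaction was -1.38 (adjusted p = 3.5e-05). *gly-13* held 642, 743, 773 and 915 without and 753, 937, 773 and 861 with the mutation, with overlap (log2 fold change 0.11, adjusted p = 0.789), and the interaction was -0.79 (adjusted p = 0.0194). *dod-24* held 433, 231, 237 and 371 without and 565, 535, 348 and 512 with it (log2 fold change 0.62, adjusted p = 0.338), and the interaction was 1.67 (adjusted p = 0.023). The tables of the backgrounds were normalized separately, and the interaction was fitted on the joined counts.

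The body-shape collagens had a median log2 fold change of -0.44 in the second background, and none of 18 passed there. Their summed level was 4176, 13832, 26516 and 70099 normalized counts in the *hsf-1* OE libraries and 11606, 11798, 31567 and 31434 with the mutation. Without the mutation the 4 libraries differed widely, from the lowest in replicate 1 to the highest in replicate 4, and the pair ratios were 2.78, 0.853, 1.19 and 0.448. No member passed the interaction test, and 10 did with the block, all negative. The spermatogenesis list had a median of -0.14 in the second background and no member past the adjusted p or the interaction test. With the block 15 of 35 passed the interaction, 14 of them negative. The major sperm proteins and small sperm families had a median of -0.36 there. Past the adjusted p 4 of 84 were lower, against 0.463% of all genes, and none higher. The interaction was passed by 1, and by 41 with the block, all negative. The germline list had a median of 0.08 and the eggshell and oocyte list of 0.31 there, with no member past the adjusted p or the interaction test. With the block 6 of 29 and 9 of 21 passed the interaction, none of them negative. The mitochondrial ribosomal list had a median of -0.14 and no member past the adjusted p or the interaction test, so no difference of its effect between backgrounds was detected, with or without the block.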

How the data were processed

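RNA-seq was carried out on whole animals by the authors, who purified mRNA on poly-dT beads and sequenced paired ends. The submitters' processing notes name HISAT2 2.0.5, featureCounts 1.5.0-p3, DESeq2 and genome build WBcel235. The annotation release and the strand setting of the counting are not given in the sources used here. The deposited values used are the authors' read counts per gene, without normalization or pooling, in one table for *ubql-1(tm1574)* and wildtype and one for each of the other comparisons. A table lists no gene with fewer than 2 counts over its 8 libraries. Columns with the authors' fold changes and p-values, and 48 further per-library columns, were left out. Where a library and gene stand in more than one table, the counts are equal. For the interaction the tables were joined into 23758 genes, and 17372 cells (4.57%) that no table lists were set to 0. Positions are those of the files, and 99.983% of the genes matched to RefSeq WBcel235 overlapped their position there. Regions that the authors named outside the annotation (122) held at most 0.034% of a library.

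Differences were tested in R 4.3.3 with the quasi-likelihood F test of edgeR 4.0.16 (with limma 3.58.1), two-sided, with TMM normalization, the filterByExpr filter and Benjamini-Hochberg adjustment over all genes tested. Genotype was the only term and only the 8 libraries compared entered. Both thresholds means that the adjusted p was under 0.05 and that the log2 fold change lay over 1 or under -1. A two-sided exact permutation test of 4 libraries against 4 cannot give a p under 0.029, the value of every gene without overlap. Total counts of 18202151 to 29617839 leave genes under about 20 normalized counts imprecise. Alternatives were DESeq2 1.42.0, RLE normalization, scaling to 3 housekeeping genes (*cdc-42*, *pmp-3* and *rpb-2*), no filter on low counts, a filter of at least 10 counts in at least 4 libraries, other fold change thresholds, all 16 libraries in one fit, the replicate number as a block, and leaving out each library.

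Replicate numbers were taken to pair the libraries, but only the block fits used them. The adjusted p, calls and leave-one-out counts given without the block thus ignore this pairing. Past both thresholds were 342 genes without the block and 779 with it. Over 14183 genes, deviations from the group means correlated between same-numbered libraries by 0.22 to 0.454, each above the limit of 0.1. Between different numbers the average was -0.126 and the highest 0.357, above the limit and above the lowest same-number value. Deviations sum to 0 within a group, so that average is largely set by the same-number values and is no separate evidence. Over all 4 groups all 24 correlations of same-numbered libraries passed the limit, the lowest at 0.172. No pair of libraries agreed within sampling noise.

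Named genes are *ubql-1* and *hsf-1*, the 15 largest rises, all falls, genes past both thresholds in every fit without 1 library, the 10 smallest p, and up to 6 members past the test in each of 53 gene lists. Other members are given by count, or with values where a list turns on them. The comparison, the gene lists and this rule were chosen with earlier results of these data known, and the lists were given no test of their own. Python 3.11.15 with pandas 2.3.3, numpy 2.4.6, scipy 1.17.1 and matplotlib 3.10.9 was used for tables and figures.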

Additional observations from a re-analysis of the deposited data

Results flagged for a closer look

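Among 51 genes named, each group of 4 libraries was examined for a library far from the other 3, and 4 of 102 groups held one. Chance alone gives about 1 in 20 groups. F30H5.3 was highest in wildtype replicate 3, at 4.79 normalized counts against 1.06 to 1.63 in the others. *grl-7* was lowest in *ubql-1(tm1574)* replicate 2, at 14.8 against 62.9 to 70.6. *lpr-3* was lowest in wildtype replicate 4, at 0.816 against 9.56 to 9.84. *bus-5* was lowest in wildtype replicate 2, at 2.12 against 6.53 to 7.18. In all 4 genes the mutant libraries still lay above the wildtype libraries.

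The effect of the mutation differed between the wildtype background and the libraries labelled *hsf-1* OE for 9 of these 51 genes. This was by the interaction term of edgeR's fit of all 16 libraries, which 0.658% of all genes passed. Most of the 51 were chosen for their change in wildtype and mutant libraries that also enter the interaction. The number and the signs are therefore largely set by that choice. The differences, on the log2 scale, were -3.84 for a transcribed region outside the annotation, -1.38 for *pph-7*, -1.05 for C18D4.6 and -0.79 for *gly-13*, each with a smaller log2 fold change there. For genes lower in the mutant against wildtype they were 2.93 for K02B12.2, 2.17 for T12G3.4, 2.04 for *fbxa-193*, 1.72 for another region outside the annotation and 1.67 for *dod-24*. C18D4.6 still rose in the second background, from 355, 377, 321 and 323 normalized counts to 745, 610, 623 and 582 (log2 fold change 0.89, adjusted p = 0.00749). K02B12.2 was too low in the second background to be tested there by itself. T12G3.4 held 321, 348, 238 and 241 normalized counts without and 304, 286, 204 and 233 with the mutation there. The libraries labelled *hsf-1* OE did not all have more *hsf-1* counts than wildtype, at 72.3, 88.7, 116 and 78.4 CPM against 97.0, 97.9, 90.1 and 92.9.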

How the results depend on the processing

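The number of genes past both thresholds, 342, was 585 with DESeq2, 779 with the replicate block (340 of the 342 among them) and 1178 with no fold change threshold. Over the 8 fits that left out a library it ran from 42 to 739, and every library except *ubql-1(tm1574)* replicate 2 moved it by more than 1.5 times. RLE normalization (352), no filter on low counts (333), the filter of at least 10 counts (350), a 1.5-fold threshold (466), the housekeeping genes (237) and all 16 libraries in one fit (482) moved it less. Of the 221 genes chosen by the rules for named genes, all stayed past the test with the replicate block, and 219 did with DESeq2, 165 with the housekeeping genes and 140 with all 16 libraries in one fit. No direction reversed. In the fit of all 16 libraries 5 of the 18 body-shape collagens, 2 of the 31 moulting genes, 2 of the 110 *col-* genes and none of the hedgehog-related genes passed both thresholds, and with the housekeeping genes 5 *col-* genes did. The cause was not tested. The 38 genes past the adjusted p in both backgrounds became 113 with the replicate block and 16 to 38 without single libraries of the second background, with 20 and 16 without *hsf-1* OE replicates 2 and 3, and 20, 18 and 22 without replicates 2, 3 and 4 of *hsf-1* OE; *ubql-1(tm1574)*. The 103 genes past the interaction became 1597 with the replicate block and 39 to 1659 without single libraries. It was 1659 and 45 without *hsf-1* OE replicates 1 and 3, 893 and 61 without wildtype replicates 4 and 1, 42 and 46 when mutant replicate 3 or 4 was left out, and 39 and 56 without replicates 2 and 3 of the double strain. Genes with few counts are limited by depth, and intervals cover counting error only.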

Other observations

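*ant-1.4*, an adenine nucleotide carrier gene, was chosen after its values were seen. It held 125, 49.9, 170 and 179 normalized counts in wildtype against 324, 336, 471 and 392 in the mutant (log2 fold change 1.54, adjusted p = 0.0336, standard error 0.33), without overlap and with wildtype replicate 2 lowest. In the libraries labelled *hsf-1* OE it held 1720, 1717, 2162 and 1641 normalized counts, and 847, 1121, 1575 and 1621 with the mutation, where its log2 fold change was -0.49 (adjusted p = 0.377). The interaction was -2.0 (adjusted p = 0.0237).

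*wago-2*, an Argonaute gene, was also chosen after its values were seen. It fell from 4815, 5358, 5160 and 4519 normalized counts in wildtype to 3574, 3914, 3746 and 3399 in the mutant (log2 fold change -0.44, standard error 0.07, adjusted p = 0.0132). In the libraries labelled *hsf-1* OE it held 3253, 2832, 3011 and 2893 without and 3099, 3696, 3713 and 3298 with the mutation, and the interaction was 0.67 (adjusted p = 0.0214). The linker histone gene *hil-3*, which rose in the mutant against wildtype, held at most 3.58 normalized counts in any library of the second background and was not tested there.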
